A study of Mus musculus with 7 samples.

Results

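The 10 genes described here encode the Janus kinases (JAKs) and the proteins that switch them off. They are the kinase genes Jak1, Jak2, Jak3 and Tyk2 and the inhibitor genes Socs1, Socs2, Socs3, Cish, Ptpn2 and Ptpn6. Their sites were taken from an ATAC-seq peak list of splenic T follicular helper (Tfh) cells by the gene name that the list gives to each peak. Of its 6395 peaks, 6 carried the name of a member, and of the 10 genes 5 had at least 1 such peak. The list holds sites that were more covered after IFNAR1 blockade than with control antibody. A gene without a row may thus be closed, equally open on both sides or less open after blockade. It may also have a gain too small or too thinly covered to be listed, or a gain in a peak assigned elsewhere. From the missing row alone these cases cannot be told apart.

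ATAC-seq uses a transposase that cuts and tags open DNA. The sort kept CD4+CD44+GITR- cells, PD-1 and CXCR5 high and PSGL-1 low, from B6/Sle1.Yaa mice aged 5 months. Both groups carried Sle1, a lupus susceptibility interval, and Yaa, a Y-linked accelerator of autoimmunity, and both had injections 2 times a week for 4 weeks. In 4 samples the injected antibody blocked IFNAR1, one of the chains of the type I interferon receptor (the treatment label writes anti-IFNA1), and in 3 samples it was anti-rat IgG. Every value is from the 2 sides as the authors combined them, none from a single sample, so no spread between mice is given and error intervals cover the counting of fragments alone. The anti-IFNAR1 side was 3.54 times as deep as the control side, where 4 against 3 equal libraries would give 1.33.

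JAKs sit on the inner tails of cytokine receptors. When a cytokine joins the receptor chains, the JAKs phosphorylate each other, the receptor and the STAT transcription factors, which then enter the nucleus. TYK2 and JAK1 serve the type I interferon receptor, JAK1 and JAK3 serve receptors with the common gamma chain, IL-21 among them, and JAK1 and JAK2 serve the interferon gamma receptor. SOCS1, SOCS3 and CIS, the product of Cish, are induced by STATs and act back on the pathway, as inhibitors of the kinase, by blocking the receptor or by marking proteins for ubiquitylation. PTPN2 (TC-PTP) and PTPN6 (SHP-1) are phosphatases that remove the activating phosphates.

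The starts of the feedback genes are shown first, with a kinase start beside them, because STATs and interferon factors are known to act on such genes through short DNA elements. RefSeq promoter windows (GRCm38.p6, 250 bases before to 50 after a gene start) matched 8 of the 10 genes, 4 kinases and 4 inhibitors. Each was searched on both strands for the STAT element GAS (TTCNNNGAA), the core of the interferon-stimulated response element (ISRE: GAAA, any 2 bases, GAAA) and the AP-1 element (TGANTCA). Capitals mark the matches. Sequences are written 5′ to 3′ on the strand of the gene.
Socs1, chr16:10785537-10785786, minus strand, the 250 bases before the start: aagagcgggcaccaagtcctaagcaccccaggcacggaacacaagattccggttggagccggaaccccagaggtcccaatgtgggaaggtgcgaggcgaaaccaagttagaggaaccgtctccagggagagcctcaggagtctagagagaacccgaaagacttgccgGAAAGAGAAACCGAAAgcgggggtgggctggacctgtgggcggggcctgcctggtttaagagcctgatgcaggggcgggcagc
Socs3, chr11:117969502-117969531, minus strand, 30 bases around the GAS match: agaaaccagccTTCTTAGAAgggagggggg
Cish, chr9:107296654-107296683, plus strand, 30 bases around the GAS matches: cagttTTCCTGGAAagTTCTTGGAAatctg
Jak1, chr4:101265283-101265473, minus strand, the 191 bases of the window that lie before every RefSeq Jak1 transcript, shown as a kinase start without a match: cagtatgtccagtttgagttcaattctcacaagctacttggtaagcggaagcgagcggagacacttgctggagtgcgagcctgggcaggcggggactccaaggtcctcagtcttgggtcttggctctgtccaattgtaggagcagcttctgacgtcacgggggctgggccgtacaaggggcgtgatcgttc

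Counted from the gene start, the Socs1 window held 2 overlapping ISRE cores, GAAAGAGAAA at -83 to -74 and GAAACCGAAA at -77 to -68. The Socs3 window held 1 GAS match at -154 to -146, and the Cish window held 2, at 1 to 9 and 12 to 20. The Ptpn6 window and the windows of all 4 kinases held none of the 3 motifs. Over all 32817 promoter windows, 8.29% held a GAS match and 0.457% held 2 or more. An ISRE core was in 3.43% of them, with 2 or more in 0.222%, and an AP-1 element in 7.81%. Of the 4210 windows that overlap a listed peak, 5.20% held a GAS match and 2.26% an ISRE core. A match describes letters and not binding, and the absence of one says only that these letters are not in this window.

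Of these matches, only that of Socs3 lay inside a listed peak. The Socs1 cores lay 233 and 239 bp from the edge of the Socs1 peak, on the side of the gene, and the Cish matches were more than 6 kb from the nearest listed peak. The promoter windows of Jak1 and Socs3 overlapped their peaks, by 134 and 189 bp, and the Socs1 peak began 66 bp beyond its window.

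Inhibitor genes made up 4 of the 5 members with a peak. They were Socs1, Socs2, Socs3 and Ptpn2, which is 4 of 6 inhibitors (66.7%), and Jak1 was 1 of 4 kinases (25%). Over all 21900 protein-coding RefSeq genes, 4615 had a peak by the same rule, 21.1%. The kinase share was near this background and the inhibitor share was above it. The background counts every protein-coding gene, whether or not it was active in these cells. Other lists counted below were also above it, STAT genes and T cell receptor kinases at 85.7% each. B cell markers (0%) and myeloid markers (20%) were not. With so few genes these shares are a description, and no test was made of kinases against inhibitors. Jak2, Jak3, Tyk2, Cish and Ptpn6 had no row. Of the 6 member peaks, 5 were placed at a transcription start site (TSS), a section that held 72.4% of the list, and 1 in intron 4 of Ptpn2.

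The kinase side of this comparison rests on the Jak1 peak. With a pileup of at least 20, 0 kinases and 3 inhibitors (Socs1, Socs3 and Ptpn2) were left, where 3.21% of protein-coding genes were. At a q of 0.01, Jak1, Socs3 and Ptpn2 were left (18.1% of protein-coding genes). In the exact tests described below, 0 kinases and 4 inhibitors were kept with the caller's window (14.6% of protein-coding genes) and Socs3 alone at the site (5.2%). Ptpn2 was kept with that window through its intron peak alone, which was set against the genome rate without control noise. The 14.6% also counts genes kept through such peaks. The start peaks of Ptpn2 and Jak1, both with a background counted at the site, were not kept. With TSS peaks alone the same 5 members counted (18.5%).

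The pileup is the coverage at the summit of a peak, in fragments scaled to the control depth. The fold is the pileup over the local control background, with 1 added to both, and the q-value is adjusted by the peak caller. Pileups, folds and q-values are those of the authors' deposited table, and unscaled fragments were recovered from them. The background is the largest of the control coverage at the site, in the surrounding 1 kb or 10 kb, and over the genome.

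Jak1, the kinase shared by the interferon, common gamma chain and IL-6 family receptors, had 1 peak of 612 bp over its start on chromosome 4 (mm10), from 101264695 to 101265307. Its summit lay 287 bp inside the transcript. It held 64 anti-IFNAR1 fragments, a pileup of 18.09, over 4 control fragments counted at the site itself, and its fold was 3.82 with a q of 0.000119. The start of Jak1 was thus covered on both sides. Its control background was at percentile 86.6 of the listed peaks and its fold at percentile 20.6. Per depth, coverage was 4.52 times that of the control (exact 95% interval 1.68 to 17.1).

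Socs3, the inhibitor best known for stopping IL-6 family signals, had the strongest member peak. It spanned chromosome 11 from 117969428 to 117970056, with its summit 399 bp inside the transcript that the list names and 283 bp upstream of the start in the RefSeq promoter table. The 84 anti-IFNAR1 fragments were the most of any member, a pileup of 23.75 over a background of 4.48, which came from 19 control fragments in the surrounding 1 kb. The fold was 4.51 with a q of 5.82e-07, rank 1324 of the list. Even this fold was at percentile 43.3, while the pileup was at percentile 94.5.

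Socs1, a direct inhibitor of JAK catalytic activity in interferon signalling, had the smallest fold of the members. Its peak ran from 10785852 to 10786405 on chromosome 16 and began 315 bp upstream of the start. The 75 anti-IFNAR1 fragments there gave a pileup of 21.2 over a background of 7.79, which came from 33 control fragments in 1 kb. The fold was 2.53 with a q of 0.0182. The control side was more covered here than at any other member, at percentile 98.9 of the list, and the fold was at percentile 0.328. Socs1 was therefore among the sites of the list with the most control coverage at or around the peak.

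Socs2, which restrains growth hormone and STAT5 signalling, had a small peak of 245 bp on chromosome 10, from 95416122 to 95416367. It lay 838 bp upstream of the transcript that the list names and inside the RefSeq gene, whose longest transcripts start further upstream. The site had 19 fragments from the anti-IFNAR1 side and a background of 0.519, which came from 22 control fragments in 10 kb, and the control side had 0 fragments at the site. The fold was 4.19 with a q of 0.0147. Coverage was low on both sides, with the pileup of 5.37 at percentile 9.78.

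Ptpn2, the phosphatase gene for TC-PTP, was the sole member with more than 1 peak. The peak at its start, on chromosome 18 from 67724335 to 67725142, held 78 anti-IFNAR1 fragments over 5 control fragments at the site, a fold of 3.84 with a q of 1.39e-05. The intron 4 peak, from 67688038 to 67688521 and 36053 bp from the TSS, held 12 fragments over the genome-wide background of 0.132, and its fold was 3.88 with a q of 0.0107. The folds of both peaks were thus close, at coverage that differed by a pileup of 22.05 against 3.39. The intron peak was thin, near the lowest count of the list of 11 fragments, and the control side had 0 fragments at the site.

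**Figure D1:**
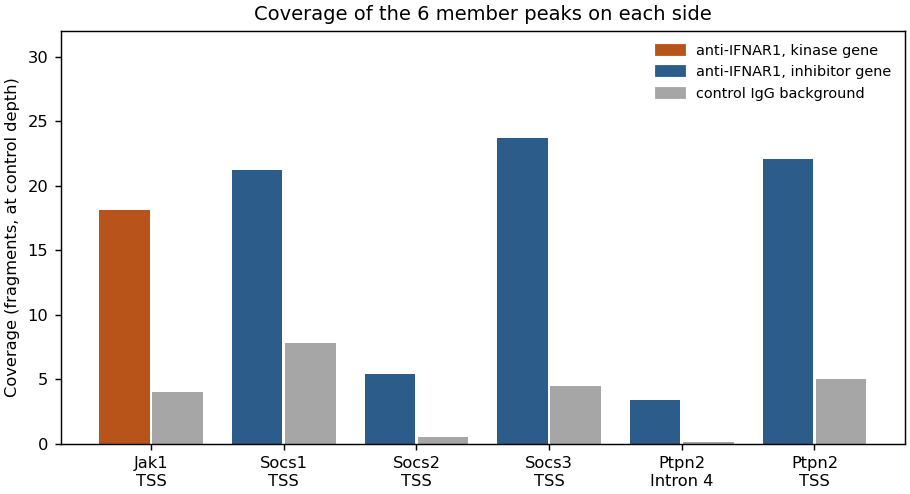
Bars give the coverage at the summit of the 6 member peaks in fragments at control depth, coloured for the anti-IFNAR1 side and grey for the control IgG background, which is the largest of site, window and genome values. The starts of Jak1, Socs1, Socs3 and Ptpn2 reach 18.09 to 23.75 over backgrounds of 4 to 7.79, and Socs2 and the Ptpn2 intron stay at 5.37 and 3.39. No error bars are drawn because no value per sample was used.

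With the peak of smallest q for each gene, the inhibitors had a median fold of 4.02 (4 genes, 2.53 to 4.51) and Jak1 had 3.82, against 4.74 over the list and 4.76 over its TSS peaks. All 6 member peaks lay below the median fold of the list. In coverage 4 of the 6 lay above its median of 41 fragments, and the same 4, at the starts of Jak1, Socs1, Socs3 and Ptpn2, lay above its median background of 1.49 control fragments. These 4 starts were covered on the control side, at the site or within 1 kb of it, and more so after blockade, by folds below the median of this list. The 1 added to both sides lowers the fold most where coverage is low. Without it, and per depth against the caller's own window, coverage was 10.3 times the control at Socs2 (exact 95% interval 5.30 to 20.03), 5.30 times at Socs3 (exact interval 3.19 to 9.23) and 2.72 times at Socs1 (exact interval 1.79 to 4.23), with control fragments from 10 kb at Socs2 and 1 kb at the others. The intervals of Socs1 and Socs2 do not overlap, and that of Jak1, counted at the site, overlaps both. Because the windows differ, this does not show that Socs1 and Socs2 differ. Counted at the site, their intervals overlap, from 1.40 to 7.79 at Socs1 and from 1.32 without an upper end at Socs2. The fold contains the background, so a high background and a low fold are not separate observations.

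**Figure D2:**
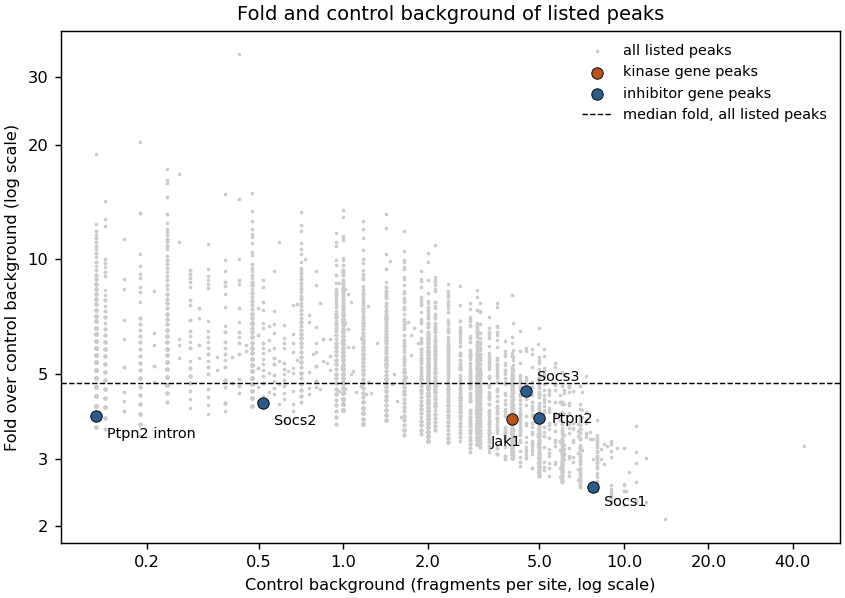
Each point is a listed peak, with its control background in fragments per site on the horizontal axis and its fold on the vertical axis, both on log scales. Grey points are all 6395 peaks, the orange point is Jak1 and blue points are inhibitor genes. All members lie below the dashed median fold of 4.74, and Socs1 lies lowest, at 2.53.

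The peak caller treats the control background as known without error. The noise of the control fragments was counted by a one-sided exact conditional binomial test with the caller's own background window. Peaks set against the genome rate, 644 in the list, had no binomial test there, because that rate was taken as known. With both kinds counted, 4 of the 6 member peaks had an exact p no larger than the weakest caller p in the list, 6.90e-05. Of all listed peaks 68.7% did, genome-rate peaks included. The member peaks were Socs1 (exact p = 4.27e-07), Socs2 (exact p = 3.26e-11), Socs3 (exact p = 5.53e-14) and the Ptpn2 intron peak (exact p = 1.45e-13). The last was set against the genome rate and hence without control noise. The caller scales the anti-IFNAR1 fragments down to the control depth, whereas the exact test uses them unscaled. An exact p can therefore be smaller than the caller's Poisson p, which was 1.75e-05 at Socs2. Passing this mark is thus not survival of a stricter test. The Jak1 peak missed it (exact p = 0.000290), and so did the Ptpn2 start by a narrow margin (exact p = 7.06e-05). These were the peaks whose background was counted at the site itself, where fewer control fragments stand behind it than in a wide window.

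At the site alone, Socs3 was the member peak that was kept (exact p = 5.41e-06), 1 of 6, as were 20.9% of all listed peaks. Coverage per depth at Socs3 was 5.94 times that of the control (exact 95% interval 2.23 to 22.3). The 4 control fragments used are the highest number its background permits, and fewer would give a higher ratio. At the Ptpn2 start it was 4.41 times (exact interval 1.81 to 14.0) and at Socs1 3.03 times with 7 control fragments by the same rule (exact interval 1.40 to 7.79). For Socs2 and the Ptpn2 intron, with 0 control fragments, the intervals had no upper end and began at 1.32 and 0.785. The intervals of Jak1 and of every inhibitor peak overlap widely, so these counts do not separate the kinase from the inhibitors. A site needs 39 fragments to be kept even over 0 control fragments, which Socs2 and the Ptpn2 intron did not have. All these peaks were listed because their coverage was high, which tilts the ratios upward.

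**Figure D3:**
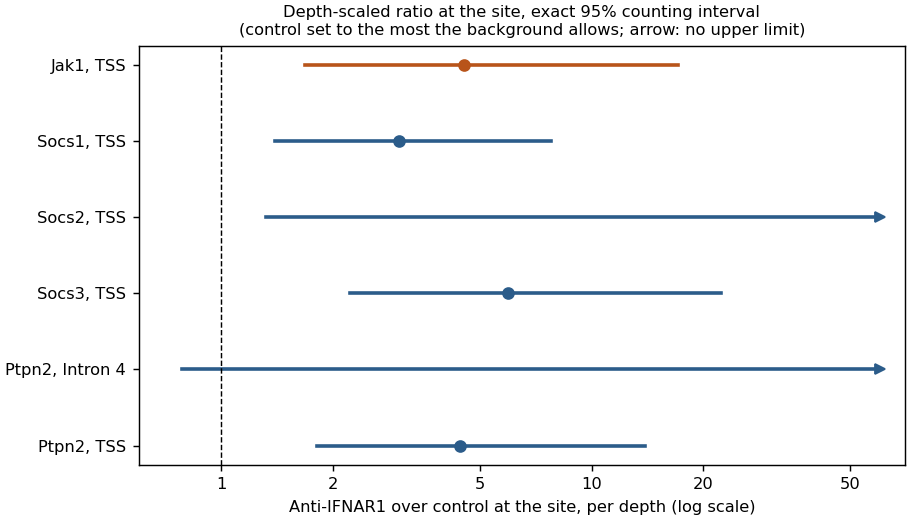
Points and lines give the depth-scaled ratio of anti-IFNAR1 to control fragments at the site and its exact 95% counting interval, on a log scale, for the 6 member peaks. Control fragments are the highest number that the background permits, and arrows mark intervals without an upper end. The intervals overlap, and that of the Ptpn2 intron begins at 0.785, below equal coverage.

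Of the 5 members without a row, 4 had a listed peak upstream of the gene within 20 kb that the list gave to another gene or to none. How often other genes without a row had one was not counted. Of all protein-coding genes, listed ones included, 38.4% had a listed peak inside the gene or within 20 kb on either side. Ptpn6, the SHP-1 gene, had the TSS peak of Grcc10 1713 bp upstream of its RefSeq span, with 82 anti-IFNAR1 fragments and a fold of 7.74 (q = 7.58e-13). Tyk2 had an intergenic peak 4549 bp upstream with 27 fragments and a fold of 4.79. Cish had the TSS peak of Mapkapk3, a stress kinase gene, 6260 bp upstream with 79 fragments and a fold of 6.94. Jak2 had an intergenic peak 14486 bp upstream with 25 fragments and a fold of 7.07. Each of these 4 folds was above the list's median, unlike those of the peaks assigned to members. The Grcc10 and Mapkapk3 peaks were also kept in the exact test at the site (exact p = 2.51e-07 and 4.94e-07).

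Jak3, the kinase of the common gamma chain, had no listed peak within 100 kb. The nearest was the TSS peak of Slc27a1, 105.9 kb upstream, with a fold of 4.30.

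Listed members had such neighbours too. The peak with the largest fold within 100 kb of any of the 10 genes lay 26.8 kb upstream of Jak1, at the 3′ end of the transcript Gm12796, with 44 anti-IFNAR1 fragments over the genome rate and a fold of 11.9 (q of 9.47e-17, rank 53 of the list), against 3.82 at the Jak1 start. It was kept at the site (exact p = 1.75e-05). Socs1 had the TSS peak of Tnp2 3006 bp upstream with a fold of 4.10, and Socs3 had that of Pgs1 16.1 kb upstream with 7.79. Counting any peak within 5 kb of the RefSeq gene gave 7 of 10 members, 2 kinases and 5 inhibitors, where 29.1% of protein-coding genes had one. Within 20 kb it gave 9 of 10, against 38.4%. Whether such peaks act on the members was not tested.

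**Figure D4:**
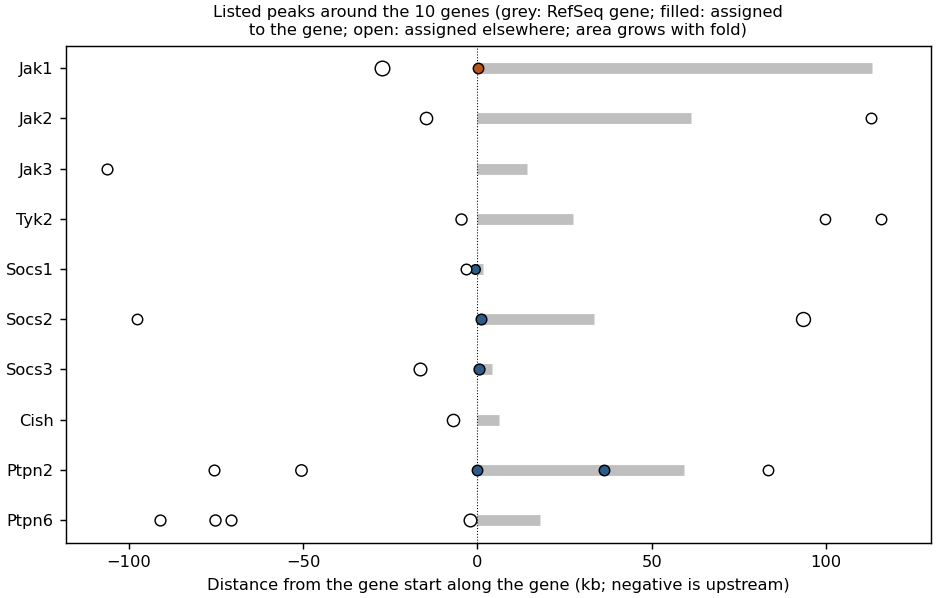
Circles mark listed peaks by their distance in kb from the outermost RefSeq start of each gene, along its direction of transcription, up to 100 kb from the gene and the nearest peak for Jak3. Grey bars are the genes, filled circles are assigned to the gene (orange for Jak1, blue for inhibitors), open circles are assigned elsewhere, and circle area grows with fold. Jak2, Tyk2, Cish and Ptpn6 have an open circle upstream within 20 kb, and Jak3 has its nearest at 105.9 kb.

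The other genes of the pathway were counted for comparison, beside the 21.1% of all protein-coding genes that had a peak. Of 7 STAT genes, the transcription factors that JAKs activate, 6 had a peak. Those of smallest q included Stat3 with a fold of 5.11 and Stat6 with 6.20. Of 19 receptor chains that bind a JAK, 8 had one. Those of smallest q were Il10rb with a fold of 8.86, Il15ra with 8.81 and Il10ra with 5.15. Ifnar1, Ifnar2, Ifngr1, Ifngr2, Il6st, Il2rg, Il7r, Il12rb1, Il12rb2, Il27ra and Il9r had none. The median fold of the listed STAT genes was 4.89 and that of the receptor chains 4.64, so these sat nearer to the list's median than the inhibitors did. The listed genes among other inhibitors of the pathway had a median fold of 4.14, so a low median was not particular to the member inhibitors.

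Among 13 other inhibitors of the pathway, 7 had a peak, where 21.1% of all protein-coding genes did. All 4 Pias genes, whose products restrain STATs and attach SUMO, were among them, with folds of 6.16 at Pias4, 4.07 at Pias3, 3.85 at Pias1 and 4.88 at Pias2, and so was the adaptor gene Sh2b3 with 4.83. The phosphatase genes Ptpn1 and Ptpn11 had their strongest peaks in introns, with folds of 4.14 and 3.82. The remaining SOCS genes Socs4, Socs5, Socs6 and Socs7 had none, nor had Ptprc, the CD45 phosphatase gene, or Usp18, which restrains the type I interferon receptor. Within the SOCS family, peaks were thus assigned to Socs1, Socs2 and Socs3 alone. Of 4 genes for the ubiquitin ligase that the SOCS box recruits, Rnf7 with 5.31 and Eloc with 3.59 had a peak, and Elob and Cul5 had none.

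Another kinase group in the same cells, the T cell receptor kinases, had 6 of 7 genes listed, with folds of 7.21 at Fyn, 7.67 at Lck and 5.55 at Zap70 and none at Txk. Of the cell type markers, 7 of 10 for Tfh and 3 of 5 for CD4 T cells had a peak. B cell markers had 0 of 5 and myeloid markers 1 of 5, where 21.1% of all protein-coding genes had one. These counts cannot check the sort, because a gene equally open on both sides is not listed. Among the Tfh markers, Cxcr5, Icos and Il21 had no assigned peak. Cd14 was the myeloid marker, with 13 fragments and a fold of 4.13 at the end of the gene. These lists were counted and not tested, and a list of gains does not measure how open a gene was.

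**Figure D5:**
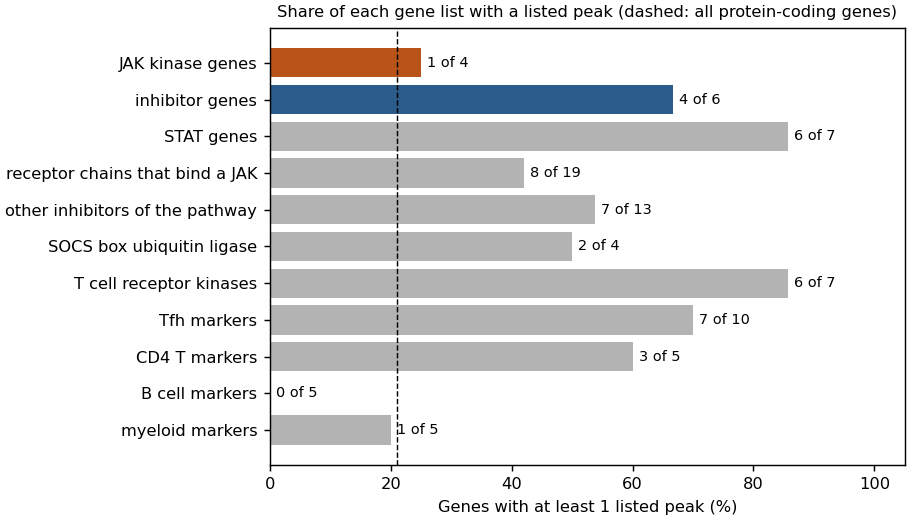
Bars give the percentage of genes in each list that have at least 1 listed peak, with the counts beside them, and the dashed line marks the 21.1% of all protein-coding genes. JAK kinase genes (1 of 4) are near the line, and inhibitor genes (4 of 6), STAT genes (6 of 7) and T cell receptor kinases (6 of 7) are above it.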

How the data were processed

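The 7 ATAC-seq samples were grouped by their treatment label into 4 anti-IFNAR1 and 3 control IgG samples, and the labels do not say whether a sample was 1 mouse or several. The build was mm10 and the tools were MACS2 2.1.0.20150420, BWA 0.7.9a, bedtools, DESeq2 and DiffBind 2.0.7, per the submitters' processing notes, which as used here assign them no role. Shifting of cut sites and removal of duplicates are not given in the sources used here. One peak list was deposited, whose names state IFN against Ig. That anti-IFNAR1 is the treated side, and that each group was pooled, was read from these names and assumed. Peak positions are as deposited. Peak length equals end minus start, so starts may count from 0.

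The pileup is a signal and the fold enrichment a ratio, both deposited by the authors and named so per the file headers. Deposited columns with damaged headers were read as −log10 p-value and q-value, and the deposited −log10 p was met by a recomputed Poisson tail within 3.92e-05. Every pileup was a whole multiple of 0.283 (tolerance 0.005), which gave fragments and a depth ratio of 3.54. The background was whole fragments at the site for 2379 peaks, in 1 kb for 2832 and in 10 kb for 540 (fragment length 236 bp), and the genome rate for 644. Depth per sample is unknown.

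The exact binomial tests and Clopper-Pearson type intervals were run on every peak at the site (Python 3.11.15, SciPy 1.17.1) and tested on simulated data. With the caller's window they left out the 644 genome-rate peaks, whose rate was taken as known. PCR copies are not independent molecules. Gene names of 5474 peaks matched RefSeq by symbol or synonym on the same chromosome within 1 Mb, and 3 that lay elsewhere were dropped. All members are named, with all their peaks. For the pathway lists, genes of smallest q (up to 3) and most unlisted genes are named, and marker lists are given mainly as counts. Pias1, Pias2, Ptpn1 and Ptpn11 were added after their values were seen. The values of 1 pathway gene are not reported here. Members, lists and tests were chosen with earlier results of these data known. Alternatives were a stricter q, a pileup filter, other gene assignments and the exact tests.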

Additional observations from a re-analysis of the deposited data

How the results depend on the processing

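A q of 0.01 left 3 of the 5 members with a peak, a pileup of at least 20 left 3 and the exact site test 1, while 9 counted within 20 kb of the gene (an alternative chosen after the data were seen). For kinases the count of 1 became 0 with a pileup of at least 20, 2 within 5 kb, 3 within 20 kb and 0 in both exact tests. For inhibitors the count of 4 became 2 with the stricter q and 1 in the exact site test. The 6 peaks became 3 with the stricter q, 3 with the pileup filter, 12 within 20 kb and 1 in the exact site test. The cause of these changes is fewer peaks or a wider search by construction.

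The inhibitor median fold of 4.02 was 4.18 at a q of 0.01, 3.88 with every peak and 4.41 without the pseudocount, where Ptpn2 alone had a background at the site, and the Jak1 fold of 3.82 was 4.52 without it. Peaks of Socs1, Socs2 and the Ptpn2 intron were kept with the caller's window and missed at the site (exact p = 0.00108, 0.00882 and 0.0504). The few control fragments, at most 7 at any member site, limit all ratios. No paired analysis was possible because no column carries a sample, and leaving out replicates was not run for the same reason.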

Other observations

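The summit of a member peak, its point of highest coverage, often lay at the very edge of the called region. It lay 4 bp from an edge at Socs1, 14 bp at Socs2 and 8 bp in the Ptpn2 intron, so 3 of 6 member peaks had the summit within 15 bp of an edge, against 7.05% of all listed peaks. These are also the 3 member peaks with a q above 0.01, and in the list 26.6% of the 1125 peaks above that q had such a summit, against 2.88% of the 5270 at or below it. At Socs1 the edge concerned is the one that faces the gene. This count was made after the values were seen, and the part of the called region's width in it was not tested.

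Further listed peaks lay in the wider surroundings of the members. Cradd, a death domain adaptor gene 59.7 kb downstream of Socs2, had a TSS peak with 38 anti-IFNAR1 fragments over the genome rate and a fold of 10.4, whereas the Socs2 peak had 4.19. Downstream of Tyk2 lay TSS peaks of the adhesion molecule genes Icam5, with a fold of 3.49, and Icam1, with 3.91. Upstream of Ptpn6 lay those of Spsb2, which encodes a further SOCS box protein, with a fold of 4.46, Tpi1, a glycolysis gene, with 4.84, and Cdca3, with 125 fragments and 4.50.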
